A study of Mus musculus with 6 samples.

Results

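Kit, Cd34 and Procr encode cell-surface proteins used to recognise blood stem and progenitor cells. They were chosen by name, and 3 of the 2744 genes in the deposited table belong to the set, each with 1 of the 3022 transcript rows. Nascent transcription was measured by PRO-seq, which captures RNA that engaged polymerases extend with biotin-labelled nucleotides during a short run-on, here of 3 min. The cells were mouse bone marrow progenitors sorted as cKIT+ before culture, that is, by the protein that Kit encodes. They came from female C57/BL6 mice of the genotype Mllt3 flox/flox Rosa26Cre+, whose age is not given. The cells were kept for 8 days in methylcellulose with cytokines, Flt3 ligand at 10 ng/mL and the others at 20 ng/mL. The medium also held 200 nM 4-hydroxytamoxifen, which serves to delete the mouse's own Mllt3. Both groups carried that deletable allele and received the drug, and they differed in the transduced protein. It was wild-type MLLT3 in 3 libraries (WT) and MLLT3 K63E K67E in 3 libraries (DM). MLLT3 is a chromatin reader, and its YEATS domain, the subject of the series, binds modified histones and 7SK RNA. The Rosa26 locus is active in nearly all cell types, so the recombinase was not limited to stem cells. Nothing states whether the replicates came from separate animals, so p-values measure the spread between these libraries, which may be technical.

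KIT is the receptor tyrosine kinase for stem cell factor, one of the cytokines in the medium, and it drives survival and growth of progenitors and mast cells. CD34 is a sialomucin of progenitors, mast cells and blood vessels, and in mouse marrow it is low on the most quiescent stem cells and higher on later progenitors. PROCR, the endothelial protein C receptor, binds protein C on endothelium and marks stem cells in mouse marrow. As neutrophils and monocytes mature, stem and progenitor surface proteins are usually lost.

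Polymerase was counted in 2 windows per transcript. The head is a 330 bp window that starts 30 bp before the annotated 5′ end and holds polymerase close to the start. The body is the remainder of the transcript, introns included. Library totals ran from 15112853 to 22981603 reads, and RPM below is reads per 1000000 reads of the library total. WT replicate 2 had the lowest total, and with 23.7 head reads per 100 body reads over all genes held it stood apart from the other 5 libraries, at 12.7 to 14.9. Mllt3 body reads, which cannot separate the mouse gene from any added cDNA, came to 84.4 ± 9.62 RPM for WT and 60.1 ± 2.50 for DM (SD, n = 3 each).

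The stretches just upstream of the annotated starts are shown because these starts differ in base composition. The last 30 bp of each stretch lie in the head window, and the rest lies outside both windows. They are the RefSeq promoter windows (GRCm38.p6), cut off where the deposited transcript begins; capitals mark a match to one of the motifs searched. Kit is at chr5:75574737-75574915, Cd34 at chr1:194938571-194938818 and Procr at chr2:155750967-155751116, each on the plus strand.
Kit: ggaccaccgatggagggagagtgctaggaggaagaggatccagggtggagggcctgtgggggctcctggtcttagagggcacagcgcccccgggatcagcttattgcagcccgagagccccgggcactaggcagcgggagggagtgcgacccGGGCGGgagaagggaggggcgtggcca
Cd34: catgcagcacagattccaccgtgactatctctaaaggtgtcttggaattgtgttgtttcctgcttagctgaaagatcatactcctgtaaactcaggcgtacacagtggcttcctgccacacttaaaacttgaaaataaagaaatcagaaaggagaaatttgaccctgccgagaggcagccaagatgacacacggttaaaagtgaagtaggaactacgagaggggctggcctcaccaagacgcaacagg
Procr: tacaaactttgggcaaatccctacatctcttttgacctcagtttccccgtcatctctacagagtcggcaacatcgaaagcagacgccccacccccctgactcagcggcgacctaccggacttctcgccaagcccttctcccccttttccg

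Over the full window, from 250 bases before to 50 after the RefSeq start, the Kit promoter was the richest of the set in G and C. Its GC content was 69%, against 58.3% for Procr and 50% for Cd34, and a median of 52.7% over 27025 promoters. Kit had 20 CG dinucleotides, Procr 13 and Cd34 7, with a median of 7. The motifs searched on both strands were TATAAA (core promoter box), GGGCGG (Sp and Klf factors), for GATA factors AGATAA or TGATAA, then GGAAGT (ETS factors), TGTGGT (RUNX factors), CANNTG (E-box) and CCAAT. The motif GGGCGG occurred once in the Kit window, 98 to 93 bases before the RefSeq start, and 35.9% of all promoters hold it, as do 67.3% of the 2148 promoters matched to genes of the table. CANNTG occurred once in Kit and once in Procr, in parts not printed, and is held by 72.1% of all promoters and 64.6% of those of the table. These matches do not overlap one another. The Cd34 window matched none of these letters. The others, held by 9.26% to 37.9% of promoters, matched in none of the 3 windows. The RefSeq start lies 71 bases downstream of the deposited 5′ end for Kit, 2 for Cd34 and 100 for Procr, so the windows and the heads do not coincide.

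Transcription of Kit and Cd34 was lower with the mutant protein and that of Procr was higher. Every transcript in the deposited table had been called by the authors on body counts, the largest adjusted p being 0.0498. Body values are therefore given as a description with no new test. Tested again here, 99.5% of the 2721 genes passed, 57.4% as higher and 42.1% as lower, and nothing is read from the body calls of the members. Head counts were not used in that selection and are tested below, although they come from the same libraries. In bulk nuclei, fewer cells that transcribe a gene and less transcription per cell cannot be told apart.

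Kit (ENSMUSG00000005672.12; chromosome 5, 75574916 to 75656722, mm10) was among the genes with most polymerase. WT replicates 1 to 3 had 28125, 15577 and 35308 body reads, and DM replicates 1 to 3 had 14863, 13484 and 13077. In RPM, the WT values were 1224, 1031 and 1543 and the DM values 651, 667 and 654. The WT libraries were all above the DM libraries, and WT replicate 3 was the highest. The DM libraries lay close together, with a coefficient of variation of 1.30% against 20.4% in WT. The means were 1266 ± 259 and 657 ± 8.53 RPM (SD, n = 3 each), or -0.95 as a log2 fold change (SE 0.144). By mean body reads, Kit ranked 5 of 2744 genes in WT and 15 in DM.

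Cd34 (ENSMUSG00000016494.9; chromosome 1, 194938819 to 194961279) gave a smaller body difference in the same direction. The WT libraries had 801, 516 and 1285 body reads (34.9, 34.1 and 56.2 RPM), and the DM libraries 571, 477 and 517 (25.0, 23.6 and 25.9 RPM). The groups did not overlap, but WT replicate 3 was well above WT replicates 1 and 2. The means were 41.7 ± 12.5 and 24.8 ± 1.15 RPM (SD, n = 3 each), or -0.75 as a log2 fold change (SE 0.189). Without WT replicate 3 it was -0.48. Over 5521 bases the Cd34 transcript overlaps the lncRNA Gm16897 in RefSeq, and whether the counting used strand is not stated.

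Procr (ENSMUSG00000027611.12; chromosome 2, 155751117 to 155755471) was scarcely transcribed, and differed in the opposite direction. The WT libraries had 24, 10 and 25 body reads and the DM libraries 52, 41 and 50. In RPM, the WT values were 1.04, 0.662 and 1.09 and the DM values 2.28, 2.03 and 2.50. Every DM library was above every WT library. The means were 0.933 ± 0.236 and 2.27 ± 0.237 RPM (SD, n = 3 each), or 1.26 as a log2 fold change (SE 0.346). Counting error is large here: the 10 reads of WT replicate 2 have a 95% Poisson interval of 4.80 to 18.4 reads. Of all 2744 genes, 38.2% had bodies lower in every DM library than in every WT library in RPM and 56.9% the reverse.

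**Figure D1:**
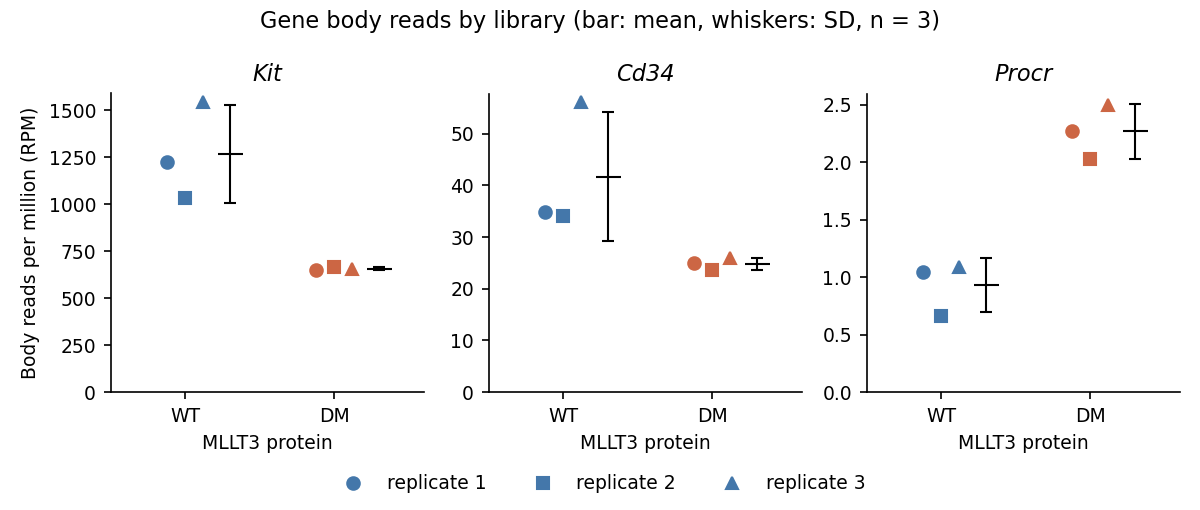
Body reads per 1000000 reads of the library total for Kit, Cd34 and Procr in each library (points, shaped by replicate number), with the mean and SD of 3 libraries beside them; each panel has its own axis from 0. Kit and Cd34 are lower in all 3 DM libraries (means 657 and 24.8 RPM against 1266 and 41.7) and Procr is higher in all 3 (2.27 against 0.933 RPM).

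The authors' deposited table gave log2 fold changes of -0.96 (SE 0.125, adjusted p 6.79e-13) for Kit, -0.77 (SE 0.198, adjusted p 9.65e-04) for Cd34 and 1.25 (SE 0.425, adjusted p 0.0187) for Procr. The same deposited table also gave percentiles of a log2 ratio for body and for head. The number of ranked transcripts, 13408, was inferred here from the spacing of the percentiles and reaches beyond the rows held. Whether the ratio was of merged or of mean values is not given by the column labels. The authors' body percentiles were 1.48 for Kit, 3.38 for Cd34 and 97.3 for Procr. The authors' head percentiles were 3.44, 1.69 and 99.3 in the same order. All 3 genes thus lay in the outer 5% of the authors' ranking, in the head as in the body. The rows held were selected on the body comparison, so body percentiles near either end are no added result. Among the 2721 genes with a body test here, 290 had a lower body log2 fold change than Kit and 452 a lower one than Cd34. For Procr, 243 had a higher one.

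Head counts ask whether polymerase near the start differed as well. Of 2579 genes with a head test, 20.3% passed an adjusted p of 0.05, 9.62% as higher and 10.7% as lower in DM. All 3 genes were among them, Kit and Cd34 lower and Procr higher. Only genes with a called body difference are held, so the heads of genes without one are not part of this background.

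For the Kit head, WT replicates 1 to 3 gave 1339, 1364 and 1740 reads, and DM replicates 1 to 3 gave 632, 746 and 626. In RPM, the WT values were 58.3, 90.3 and 76.1 and the DM values 27.7, 36.9 and 31.3. The groups were apart, with WT replicate 2 the highest and WT replicate 1 the lowest of WT, an order that differs from that of the body. The means of 74.9 ± 16.0 and 32.0 ± 4.65 RPM (SD, n = 3 each) gave -1.23 as a log2 fold change (SE 0.244, edgeR adjusted p 0.00719).

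The WT libraries gave 66, 71 and 149 Cd34 head reads (2.87, 4.70 and 6.51 RPM), and the DM libraries 25, 37 and 33 (1.09, 1.83 and 1.65 RPM). All DM libraries were below all WT libraries, and the WT libraries differed among themselves by more than the DM libraries did. The means were 4.69 ± 1.82 and 1.53 ± 0.384 RPM (SD, n = 3 each), or -1.62 as a log2 fold change (SE 0.346, edgeR adjusted p 0.00847). Of 2579 genes tested, 44 had a lower head log2 fold change than Cd34 and 139 a lower one than Kit.

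The WT libraries gave 9, 1 and 9 Procr head reads and the DM libraries 29, 15 and 16. In RPM, the WT values were 0.392, 0.0662 and 0.393 and the DM values 1.27, 0.742 and 0.801. WT replicate 2 rests on 1 read, with a 95% Poisson interval of 0.0253 to 5.57 reads. The means were 0.284 ± 0.188 and 0.937 ± 0.289 RPM (SD, n = 3 each), or 1.62 as a log2 fold change (SE 0.516, edgeR adjusted p 0.0381). This call is close to the threshold and was lost in 5 of the 6 fits that left out a library and with no filter on low counts (edgeR adjusted p 0.0671). Leaving out WT replicate 2 gave a log2 fold change of 1.25 (edgeR adjusted p 0.0513), without WT replicate 3 it was 1.87 (0.0710), and without DM replicate 1, 2 or 3 it was 1.34 (0.212), 1.77 (0.0790) and 1.73 (0.113).

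The head calls of Kit and Cd34 were each lost in the fit without DM replicate 1, with log2 fold changes of -1.13 and -1.43 and an edgeR adjusted p of 0.0670 for both. In that fit 14 of 2633 genes passed in all, so the adjustment over the table also differed; without DM replicate 2 or 3 it was 207 and 110, and without WT replicate 1, 2 or 3 it was 850, 942 and 311. In RPM, 23.3% of the 2744 genes had heads lower in every DM library than in every WT library, as Kit and Cd34 had, and 17.7% had the reverse, as Procr had.

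**Figure D2:**
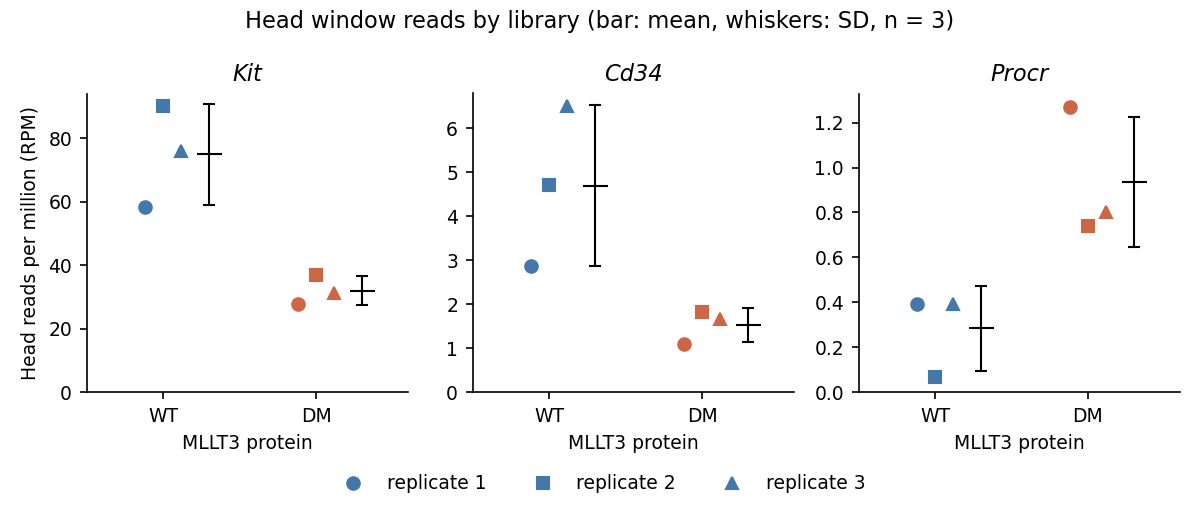
Head reads per 1000000 reads of the library total for Kit, Cd34 and Procr in each library (points, shaped by replicate number), with the mean and SD of 3 libraries beside them; each panel has its own axis from 0. The groups do not overlap for any of the 3 genes, and the Procr point of WT replicate 2, at 0.0662 RPM, is a single read.

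**Figure D3:**
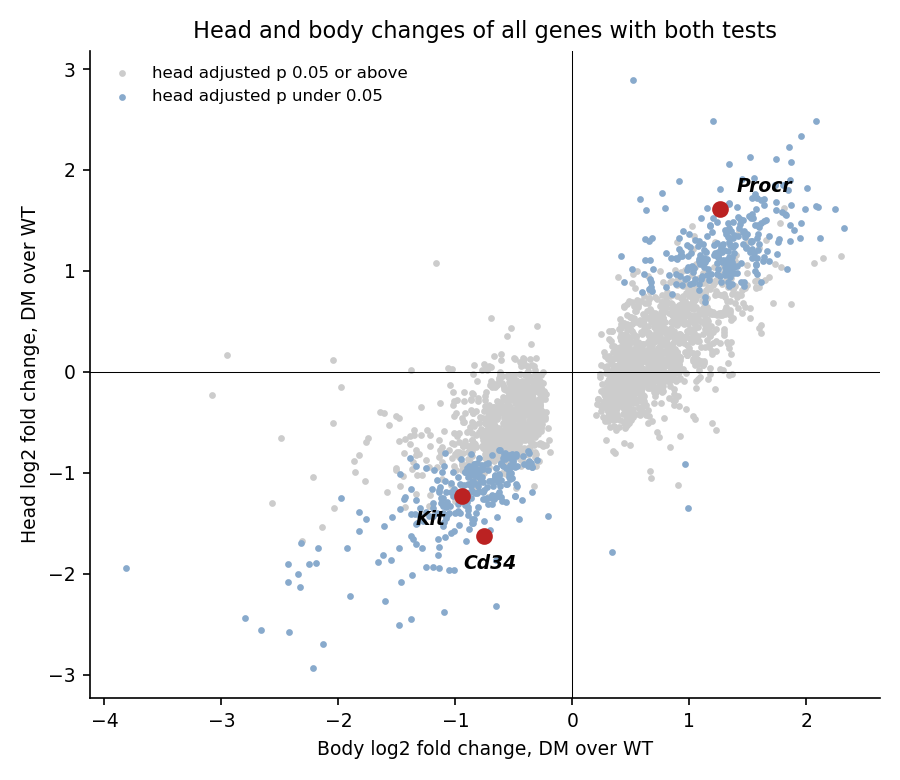
Log2 fold change (DM over WT) of the head against that of the body for each gene with both tests, with Kit, Cd34 and Procr in red and genes past the head threshold in blue; the empty band around 0 on the body axis comes from the authors' selection of rows. Kit (-0.95 body, -1.23 head) and Cd34 (-0.75, -1.62) lie among genes lower in both windows and Procr (1.26, 1.62) among genes higher in both.

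The head to body ratio asks whether polymerase near the start changed more than polymerase further along, and it needs no library scaling. Per 100 body reads, Kit had 4.76, 8.76 and 4.93 head reads with the WT protein and 4.25, 5.53 and 4.79 with DM. Its groups overlapped, and WT replicate 2 was apart from the other 5, as it was over all genes held. The means were 6.15 ± 2.26 and 4.86 ± 0.643 (SD, n = 3 each), a log2 change of -0.29 (SE 0.277, edgeR adjusted p 0.611). Leaving out WT replicate 2 brought it to -0.0036 (edgeR adjusted p 0.991). The median over the 2577 genes tested was -0.26.

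For Cd34 the same ratio was 8.24, 13.8 and 11.6 with the WT protein and 4.38, 7.76 and 6.38 with DM. Its groups did not overlap, as for 21.3% of 2740 genes in the same direction and 4.05% in the other. The log2 change was -0.85 (SE 0.313), lower than that of all but 147 of the 2577 genes, but it did not pass after adjustment over the table (unadjusted p 0.0171, edgeR adjusted p 0.265). WT replicate 2 was the highest library for Cd34 too, and without it the log2 change was -0.71 (edgeR adjusted p 0.150). Procr values of 37.5, 10.0 and 36.0 with the WT protein overlapped those of 55.8, 36.6 and 32.0 with DM. Its log2 change was 0.39 (SE 0.546, edgeR adjusted p 0.740). It was 0.16 without WT replicate 2 and 0.14 without DM replicate 1 (edgeR adjusted p 0.886 and 0.955). Over all genes tested, the ratio test was passed by 2, or 0.0776%, and 395 had an unadjusted p under 0.05, so the members' misses are no sign that their ratios were alike in both groups.

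**Figure D4:**
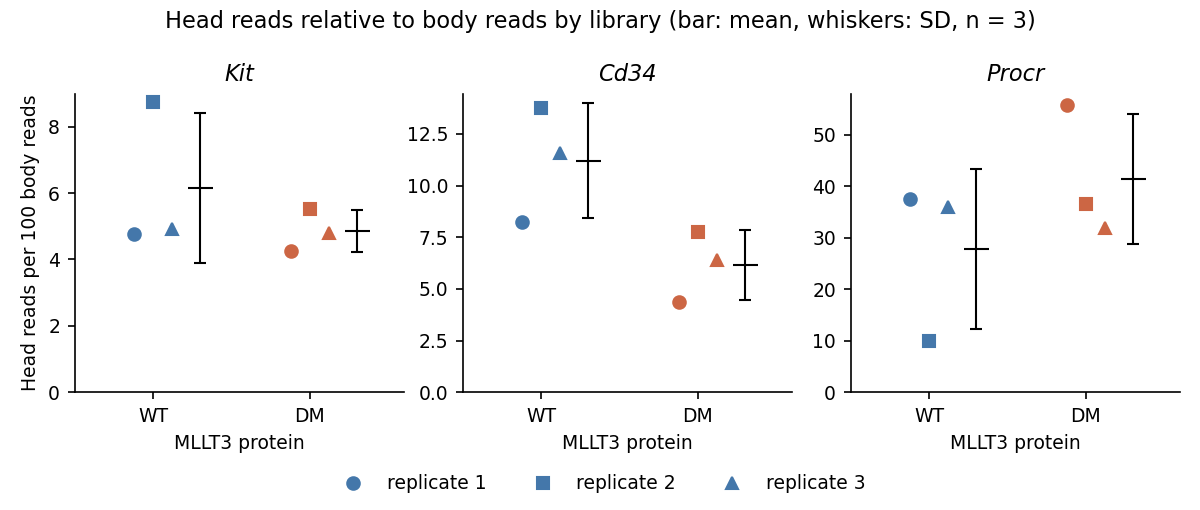
Head reads per 100 body reads of Kit, Cd34 and Procr in each library (points, shaped by replicate number), with the mean and SD of 3 libraries beside them; each panel has its own axis from 0. The groups are apart for Cd34 (means 11.2 and 6.17) and overlap for Kit and Procr. WT replicate 2 is the highest library for Kit (8.76) and Cd34 (13.8) and the lowest for Procr (10.0).

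Per length, the genes kept one order in the body. Body RPKM, the deposited read count per kb of window scaled to the library total, averaged 15.5 ± 3.18, 1.88 ± 0.565 and 0.230 ± 0.0583 in WT for Kit, Cd34 and Procr and 8.07 ± 0.105, 1.12 ± 0.0519 and 0.560 ± 0.0585 in DM (SD, n = 3 each). Kit was above Cd34 and Cd34 above Procr in each of the 6 libraries. Among 2744 genes, the rank by mean body RPKM went from 66 in WT to 183 in DM for Kit, from 778 to 1332 for Cd34 and from 2238 to 1869 for Procr. In the heads, Kit averaged 227 ± 48.6 RPKM in WT and 96.9 ± 14.1 in DM, Cd34 14.2 ± 5.52 and 4.62 ± 1.16, and Procr 0.860 ± 0.571 and 2.84 ± 0.876 (SD, n = 3 each). In DM the heads of Cd34 and Procr overlapped: DM replicate 1 had 3.32 RPKM for Cd34 and 3.85 for Procr.

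Ratios between the genes within a library need no scaling. In the body they are a description, since each gene is held for its body difference and Procr differed in the opposite direction. The body RPKM of Cd34 was 6.10, 9.44 and 9.40 times that of Procr in WT replicates 1 to 3 and 2.01, 2.13 and 1.89 times in DM replicates 1 to 3. The mean log2 ratio differed by -2.02 between DM and WT, and that of Kit over Procr by -2.24. Kit over Cd34 was 9.55, 8.21 and 7.47 in WT and 7.08, 7.69 and 6.88 in DM. Its groups overlapped through WT replicate 3, and the log2 difference was -0.22. Without WT replicate 3 it was -0.30 and the groups were apart, and without WT replicate 1 it was -0.12. In the heads, the log2 differences were -3.28 for Kit over Procr and -3.65 for Cd34 over Procr (two-sided exact permutation p 0.1 each, 0.15 adjusted over 3 pairs). With 3 against 3 no p below 0.1 can be reached, so this test cannot pass 0.05. Without WT replicate 2, whose Procr head is 1 read, they were -2.28 and -2.75. For Kit over Cd34 in the heads, the difference was 0.36 (exact permutation p 0.5, adjusted 0.5). It was 0.11 without WT replicate 3 (exact permutation p 0.9) and 0.24 without DM replicate 1 (exact permutation p 0.9).

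**Figure D5:**
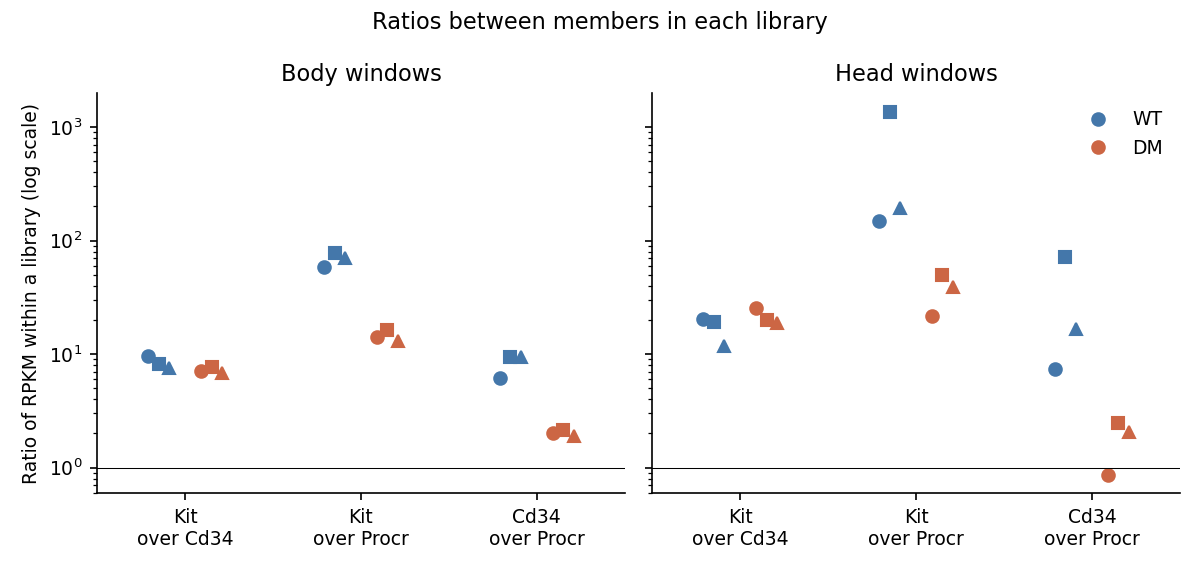
Ratio of RPKM between 2 of the genes within each library, for bodies (left) and heads (right), on a log axis; points are libraries, shaped by replicate number and coloured by group. Ratios over Procr are lower in all DM libraries (Cd34 over Procr in the body near 2.01 in DM against 8.31 in WT, as means of 3), while Kit over Cd34 overlaps between the groups.

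In the body, the order of the WT libraries was the same for all 3 genes, replicate 3 above 1 above 2. On the log2 RPM scale, WT replicate 3 lay 0.31, 0.47 and 0.24 above the group mean for Kit, Cd34 and Procr. WT replicate 2 lay at -0.28, -0.25 and -0.41, and WT replicate 1 at -0.029, -0.22 and 0.18. Over all genes held, WT replicates 1 to 3 had 3915173, 2404908 and 4211146 body reads, which as shares of the library totals follow the same order. In DM the spread of Kit and Cd34 was small and their order was not shared: replicate 2 was the highest for Kit (0.021) and the lowest for Cd34 (-0.072). Procr had the order of Cd34 with a wider spread, lowest in DM replicate 2 (-0.15) and highest in DM replicate 3 (0.14). Over the 6 libraries Pearson's r of log2(body RPM + 0.1) was 0.95 between Kit and Cd34, -0.79 between Kit and Procr and -0.66 between Cd34 and Procr. These values describe 2 groups of 3 libraries and mostly carry the group difference.

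By that measure, the genes most like Kit among 2640 with a mean of at least 50 body reads were Clnk, an adaptor protein of immune receptor signalling, Rapgef3, a cAMP-activated exchange factor, and Cadm3, an adhesion protein (r 0.999, 0.998 and 0.998). Clnk had 501, 398 and 642 body RPM with the WT protein and 249, 254 and 246 with DM, with replicate 3 highest and replicate 2 lowest in WT as for Kit. The genes most like Cd34 were Sqle, an enzyme of cholesterol synthesis, Glcci1 and Lpar6, a receptor for lysophosphatidic acid (r 0.997, 0.995 and 0.991). Those most like Procr were Maea, Gla, a lysosomal galactosidase, and Aph1c, a gamma-secretase subunit (r 0.999, 0.998 and 0.997). Procr itself was below the floor set for the genes compared, with mean body reads of 19.7 in WT and 47.7 in DM. Its counting error is large, and these r values are the highest of 2641 over 6 libraries, so they do not establish likeness. Maea, whose body RPM was 66.1, 59.2 and 67.9 in WT and 81.9, 79.9 and 85.9 in DM, shared the low WT replicate 2 with Procr but not the size of its difference.

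Genes that act with these proteins were taken from lists, and genes of a list outside the table were not analysed here. Over all 2579 genes with a head test 20.3% passed, 10.7% as lower and 9.62% as higher. Every gene held had also been called on body counts in the same libraries. Of 39 genes that carry the KIT signal, 15 were held and had a head test, and 1 passed. It was Plcg1, a phospholipase, which was lower, from 13.1 ± 4.42 to 6.54 ± 0.346 head RPM (SD, n = 3 each; log2 fold change -0.997, edgeR adjusted p 0.0230). The list's median head log2 fold change was -0.13, beside -0.11 over all genes tested. Among the body values of these 15 genes 9 were higher and 6 lower in DM, beside 1563 higher and 1158 lower over all genes. The kinase Lyn, at 0.56, and the ubiquitin ligase Cbl, at 0.87, were on the higher side, and the kinase Fyn, at -0.32, on the lower (body log2 fold changes, no test).

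Of the receptors for the other cytokines in the medium, 4 of 10 were held. None passed the head test by edgeR (2 had an unadjusted p under 0.05), and 1 passed by DESeq2. Body log2 fold changes were 1.32 for the interleukin-6 receptor gene Il6ra, 0.73 for its partner Il6st, 0.68 for Csf2ra and -0.52 for Csf2rb2. The head of Csf2rb2, a beta chain of the interleukin-3 receptor, had a log2 fold change of -0.62 (edgeR adjusted p 0.0628).

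Of the CD34 family and its partners, the sialomucin Podxl was the gene held of 8, with log2 fold changes of -0.76 in the body and -0.998 (edgeR adjusted p 0.134) in the head. In the protein C pathway, 4 of 17 genes were held and the 3 with a head test passed it, beside 20.3% of all genes tested. Thrombomodulin (Thbd), which lets thrombin activate protein C, rose from 3.16 ± 1.26 to 6.75 ± 0.827 head RPM (log2 fold change 1.10, edgeR adjusted p 0.0241). Mertk, a receptor for protein S and Gas6, rose from 6.44 ± 1.11 to 16.0 ± 1.19 (1.31, edgeR adjusted p 0.00714). F2r, the thrombin receptor that activated protein C also cleaves, fell from 38.1 ± 2.20 to 18.8 ± 1.57 (-1.02, edgeR adjusted p 0.0106; SD, n = 3 each). Thbd and Mertk thus shared their direction with Procr, and F2r that of Kit and Cd34.

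Other surface genes of stem and progenitor cells did not share one direction, though most of those held had higher values in DM. Of 31 listed, 6 were held, and 2 passed the head test, beside 20.3% of all genes tested. Itga2b, an integrin of megakaryocytes and early progenitors, fell with a log2 fold change of -0.97 (edgeR adjusted p 0.0180), and Il7r, a receptor of lymphoid progenitors, rose by 1.53 (edgeR adjusted p 0.0176). Body log2 fold changes were 1.65 for Alcam, 1.07 for Cd9, 0.87 for Prom1 and 0.62 for Fcgr2b. Of the 6 body values 5 were higher and 1, that of Itga2b, lower in DM, beside 1563 higher and 1158 lower over all genes. The list's median log2 fold change was 0.97 in the body and 0.39 in the head, beside 0.40 and -0.11 over all genes tested.

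Of 24 transcription factors known to act on Kit or Cd34 or beside them in progenitors, 13 were held, and 12 of them had a head test. In the head, 4 passed, all lower, beside 10.7% lower over all genes tested. The median head log2 fold change of the 12 was -0.75, beside -0.11 over all genes tested. Myb fell most in the head, from 8.17 ± 2.63 to 2.78 ± 0.622 RPM (log2 fold change -1.56, edgeR adjusted p 0.00761). Gata2, a factor of stem and mast cells, fell from 54.2 ± 16.2 to 24.0 ± 4.39 (-1.18, edgeR adjusted p 0.0123). Gata1, of erythroid and mast cells, fell from 6.30 ± 2.54 to 2.77 ± 0.488 (-1.18, edgeR adjusted p 0.0220; SD, n = 3 each). Meis1 fell as well (-1.07, edgeR adjusted p 0.0137). In the body, on which the rows were selected, all 12 values were lower, from -1.15 for Meis1 to -0.28 for Tcf3 and Runx1, beside 1158 of 2721 over all genes.

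Markers of other cell types differed between the groups, some lower and some higher in DM. Mast cells carry KIT and CD34, and of 15 mast cell and basophil markers 6 were held, with a summed body level of 1713 to 3037 RPM in WT and 1315 to 1403 in DM. In the head, 3 of these 6 passed, all lower, beside 10.7% lower over all genes tested. They were Fcer1a (log2 fold change -1.44), Gzmb (-1.33) and Tpsb2 (-1.11), with edgeR adjusted p 0.00838, 0.00927 and 0.0243. Of 22 neutrophil and monocyte markers 10 were held, summing to 283 to 342 body RPM in WT and 691 to 777 in DM. Of the 9 with a head test, 5 passed, all higher, beside 9.62% higher over all genes tested. Lyz2 (log2 fold change 1.64), S100a8 (1.52) and Csf1r (1.21) led, with edgeR adjusted p 0.00541, 0.00531 and 0.0275. Of the 10 body values 9 were higher, and 1 was lower, that of the granule protease gene Ctsg (log2 fold change -0.85 in the body and -0.70 in the head, edgeR adjusted p 0.105 in the head). Held as well were 2 of 15 erythroid markers (30.5 to 50.3 body RPM in WT, 17.1 to 21.9 in DM), 1 of 11 megakaryocyte markers, Itga2b (132 to 166, and 76.9 to 89.8), and 1 of 18 lymphoid markers, Il7r (18.8 to 28.5, and 56.0 to 71.5). No marker held was at 0 reads over the 6 libraries. The endothelial and stromal markers, cells in which Cd34 and Procr are also known, were not analysed here. The part of any of these cell types in the values of Kit, Cd34 and Procr was not tested.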

How the data were processed

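Raw head and body read counts, whole-library totals and RPKM values per library were deposited by the authors in 1 table. How the totals were counted, the annotation, strand use and treatment of multiply mapped reads are not given in the sources used here. The submitters' processing notes name Bowtie 1.1.2, bedtools 2.28, cutadapt, Trimmomatic and MACS2, and the builds mm10 and dm3, without their roles. Log2 fold changes, p-values, mean normalized signal and percentiles (in percent) of the body comparison were also deposited by the authors; the tool is not stated. All 6 libraries are in batch 1 per the labels.

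One row per gene was used, that with the highest mean body count, which left out 278 rows. Counts were tested by quasi-likelihood in edgeR 4.0.16 (with limma 3.58.1 and R 4.3.3; filterByExpr, minimum count 10, minimum total 15), with group as the only term and the deposited totals as library sizes, since scaling on rows selected by the comparison is not that of all transcripts. The ratio test was the region by group interaction with library as a block. The SE given for edgeR fits is the absolute log2 fold change divided by the square root of the quasi-likelihood F statistic. It is not the same quantity as the SE deposited by the authors. P-values were adjusted by Benjamini-Hochberg over all genes tested, at 0.05. Alternatives were TMM, DESeq2 (1.42.0) size factors, the authors' size factors recovered from the deposited mean signal, the DESeq2 test, other filters, all rows, the replicate block and leaving out each library. On simulated counts with 200 genes changed 2-fold, the head test recovered 94.5% among 2595 genes (5 false calls). The body test recovered 99.5% among 2740 (14) and the ratio test 72% among 2598 (6). The simulation gave every gene the same dispersion and no library a shift of its head reads. It changed only genes with more head reads than Procr. These shares are therefore not the performance of the tests on the real libraries. Head pair ratios were tested by exact permutation, two-sided; those of the bodies are given without a p, as the rows were selected on body counts. Poisson intervals cover counting error only. Replicates differed beyond sampling noise, and WT libraries more than DM libraries. Chi-square per degree of freedom was 25.6 to 40.4 between WT libraries and 2.67 to 6.87 between DM libraries. Promoters were matched by symbol for all 3 genes.

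Named were Kit, Cd34 and Procr; the 3 genes most like each; up to 3 genes per list with the largest head change past the threshold; and Mllt3. Meis1, Ctsg and the list genes given without a call were chosen after seeing their values. The members and lists were chosen with earlier results of these data known.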

Additional observations from a re-analysis of the deposited data

How the results depend on the processing

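The directions of the head, body and ratio changes of Kit, Cd34 and Procr, and of the pair ratios, were the same in every alternative that gave a value. Among the alternative values and counts, 158 kept their call or size, 23 moved and 8 lost their call. Body directions are no sign of stability, since the rows were selected on them. Where a cause is not given, the cause was not tested.

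Scaling moved the median body log2 fold change of all genes from 0.40 to 0.11 (TMM) and 0.064 (DESeq2 size factors), and the share of higher among body calls from 57.7% to 44.9% and 42.1%. With them the body log2 fold change of Kit became -1.23 and -1.27, and under DESeq2 size factors that of Cd34 became -1.08 and that of Procr 0.93. Head calls went from 524 to 984 (TMM) and 985 (DESeq2 size factors), and to 321 among genes with a mean of at least 50 counts, where fewer genes were tested and Procr was not. With no filter the Procr head log2 fold change was 1.63 (edgeR adjusted p 0.0671). Ratio calls went from 2 to 42 with the DESeq2 test and 1 with a mean of at least 50 counts.

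With the replicate number as a block 796 heads, 2635 bodies and 38 ratios passed, and the head log2 fold changes of Kit, Cd34 and Procr were -1.21, -1.58 and 1.68. Deviations from the group means of same-numbered libraries correlated at 0.091, -0.044 and 0.024 in heads for numbers 1 to 3. In bodies the values were -0.088, -0.18 and 0.36. Libraries of different numbers were not compared, so these values cannot exclude a pairing. The labels state none, and the main fits had group as the only term.

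Leaving out 1 library gave 14 to 942 head calls and 0 to 82 ratio calls; edgeR called no ratio without a DM library, with 152, 254 and 168 genes at an unadjusted p under 0.05. Head log2 fold changes ran from -1.38 to -1.07 for Kit, -1.89 to -1.30 for Cd34 and 1.25 to 1.87 for Procr, and ratio changes from -0.44 to -0.0036, -1.04 to -0.64 and 0.14 to 0.57 in the same order. DESeq2 gave no adjusted p for the Cd34 and Procr ratios. Depth limits Procr, with 19 head reads over the WT libraries and 60 over the DM libraries.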
